A study of Mus musculus with 12 samples.

Results

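The genes described here encode the proteins of the mitochondrial ribosome (mitoribosome). They were taken as every locus with a gene name of the form Mrpl or Mrps plus a number, to which Dap3, Chchd1, Ptcd3, Aurkaip1 and Gadd45gip1, mitoribosomal proteins with other names, were added. This gave 83 of the 44450 loci listed, for 82 symbols, since Mrps23 had a further locus that was at 0 in every library. The other 82 loci had at least 1 FPKM (fragments relative to transcript length and to all mapped fragments) in at least 3 libraries and were tested, among 12181 loci in all. Mrps36 is a member by name only, as described below, and is included in the counts of all members.

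The mitoribosome translates the few mRNAs that mitochondrial DNA encodes, which specify core subunits of the respiratory chain and of ATP synthase. Its RNAs come from mitochondrial DNA, while all its proteins are encoded in the nucleus, made in the cytosol and imported. The small subunit binds and decodes the mRNA, and the large subunit forms peptide bonds and releases the chain at the inner membrane. Some of the proteins have bacterial homologs and others are found in mitoribosomes only. Heart muscle is rich in mitochondria and depends on respiration.

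The samples were hearts of 11-week-old C57BL/6N mice. The 3 control libraries came from mice with the genotype Mrpp3loxP/loxP. The 3 knockout libraries came from mice that also carried the Ckmm transgene (Mrpp3loxP/loxP, +/Ckmm), which drives Cre recombinase from the muscle creatine kinase promoter and so acts in heart and skeletal muscle fibres. MRPP3 is the endonuclease of the mitochondrial RNase P complex, and frees tRNAs from long mitochondrial transcripts at their 5' ends. Both groups carried the floxed allele and only the knockouts carried Cre, so an effect of Cre cannot be told apart from loss of the gene. Total RNA was sequenced after Ribo-Zero removal of cytoplasmic rRNA, and 6 further libraries made from mitochondrial RNA were not analysed here. The labels number the samples as replicates without saying that each is a separate animal, and the p-values therefore reflect sample spread, which may be technical.

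The targeted gene, Prorp (listed as 1110008L16Rik), had control values of 3.49, 2.64 and 3.23 FPKM and knockout values of 0.441, 0.701 and 0.555 FPKM, with no overlap. The 6 libraries held between 11753 and 12272 loci at 1 FPKM or more. Relative sequencing depth, read from the steps between low values, was 1.32 and 1.35 times that of control replicate 1 in the other controls and 2.06 to 2.58 times in the knockouts, so low values were less precise in the controls. Summed over 6 cardiomyocyte markers, the level was 29172 to 33384 FPKM in controls and 7216 to 14768 FPKM in knockouts, and 5 of the 6 were lower. In RNA from whole hearts, fewer cells of a type and less RNA per cell cannot be told apart. Knockout replicate 2 stood apart: its 4 atrial muscle markers summed to 3706 FPKM and its 5 erythroid markers to 21895 FPKM, against at most 119 and 2902 FPKM in any other library.

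Most mitoribosomal protein mRNAs did not pass the test, and most of those that passed were lower in the knockout. By limma with Benjamini-Hochberg adjustment over all loci and a threshold of 0.05, 24 of the 82 members were lower in the knockout (29.3%), 4 were higher (4.88%) and 54 did not pass. Among all loci tested, 19.5% were lower and 16.1% higher, so that 35.7% passed in either direction, beside 34.1% of the members. The median log2 fold change of the members was -0.25, with the middle of the distribution between -0.61 and 0.02, while the median over all loci was -0.02. A log2 fold change below 0 was found for 60 members, and for 51.5% of all loci. Every knockout library lay below every control library for 34 members (41.5%; 28.7% of all loci) and above for 5 members (6.10%; 23.6% of all loci). A difference of at least 2-fold was reached by 6 lower members and by 1 higher member, where 6.76% and 5.8% of all loci did so. The count of lower members was 15 without control replicate 2 and 14 without control replicate 3, and that of higher members was 2 without control replicate 1 or 2 and 11 without knockout replicate 2. Without control replicate 2 and 3, 18.3% and 17.1% of members were lower, beside 11.6% and 12.1% of all loci. Without control replicate 1 and 2, 2.44% of members were higher, beside 10.5% and 9.95% of all loci. Without knockout replicate 2, 13.4% of members and 17.7% of all loci were higher. When each library was scaled to 1 sum, which moved the median of all loci from -0.02 to 0.20, 9 members were higher and 17 lower, with a median of -0.02, and over all loci 3229 were higher and 1400 lower.

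**Figure D1:**
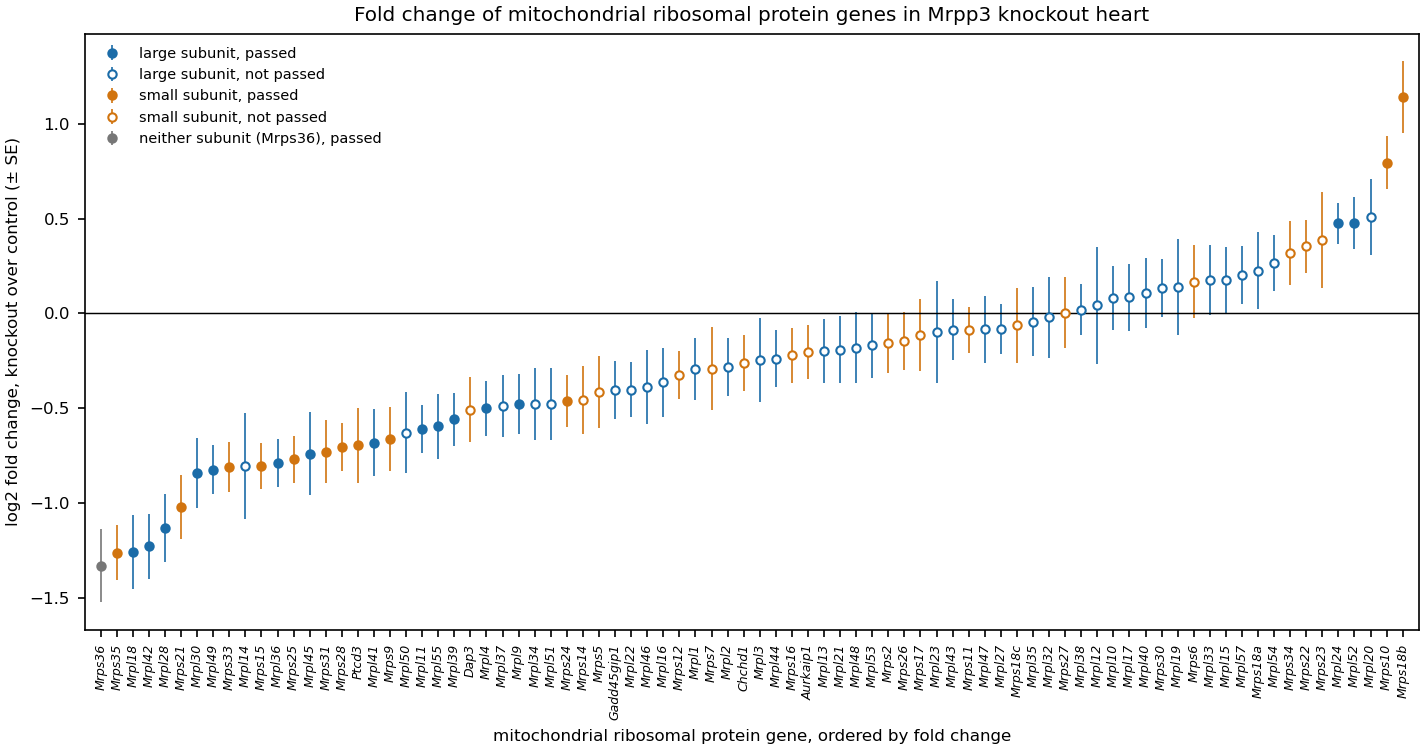
Log2 fold change (knockout over control, of log2(FPKM + 0.5)) of the 82 tested members, ordered by value, with bars of 1 standard error, n = 3 libraries per group. Filled points passed a limma adjusted p of 0.05. Of these 24 lie below 0, from Mrps36 (a member by name only) at -1.33, and 4 above, up to Mrps18b at 1.14.

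Among the 4 higher members, Mrps18b rose most. MRPS18B is a small subunit protein and one of the mammalian relatives of bacterial ribosomal protein S18. Its mRNA (XLOC_016052) was at 12.1, 14.1 and 13.3 FPKM in controls and at 33.3, 21.9 and 35.3 FPKM in knockouts. The lowest knockout library was above the highest control. Means were 13.2 ± 1.04 and 30.2 ± 7.22 FPKM (SD, n = 3 each), and limma gave a change of 1.14 on the log2 scale (SE 0.19, adjusted p = 0.0042). Mrps10, for the homolog of bacterial S10 in the head of the small subunit, was at 10.4, 9.90 and 10.1 FPKM in controls and at 19.4, 14.8 and 20.2 FPKM in knockouts (limma: log2 fold change 0.80, SE 0.14, adjusted p = 0.0052). Knockout replicate 2 was the lowest knockout library for both genes, and still above all 3 controls.

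Smaller rises were seen for a pair of large subunit genes. Mrpl52 encodes a protein found in mitoribosomes only. Its mRNA was at 38.2, 48.0 and 47.1 FPKM in controls and at 56.8, 63.5 and 65.2 FPKM in knockouts (limma: log2 fold change 0.48, adjusted p = 0.033). Mrpl24, for a homolog of bacterial L24 near the exit of the peptide tunnel, was at 35.1, 36.6 and 38.9 FPKM in controls and 50.8, 50.8 and 52.6 FPKM in knockouts (0.47, limma adjusted p = 0.014). For each gene the groups did not overlap. In the RefSeq gene table Mrpl24 overlaps the protein-coding gene Rrnad1, and use of strand in the quantification is not given in the sources used here. The calls for Mrpl24 and Mrpl52 were lost when control replicate 1 or 2 was left out, and that for Mrpl52 also without control replicate 3 or knockout replicate 3. Both calls were lost with the replicate block, at limma adjusted p of 0.051 and 0.055. Those for Mrps10 and Mrps18b held in all 18 fits made.

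The proteins related to bacterial S18 differed among themselves. Mrps18c encodes the direct homolog in the small subunit. Its mRNA was at 27.98, 31.2 and 35.1 FPKM in controls and at 31.1, 22.6 and 38.0 FPKM in knockouts, so the groups overlapped (limma: log2 fold change -0.06, SE 0.20, adjusted p = 0.83). Mrps18a, whose protein sits in the large subunit despite its name, was at 46.9, 48.2 and 49.0 FPKM in controls and at 61.0, 41.0 and 71.0 FPKM in knockouts. For Mrps18a knockout replicates 1 and 3 were above and replicate 2 below all controls (0.23, SE 0.20, limma adjusted p = 0.41). Of the 3 relatives only Mrps18b passed the test, and the difference between them was not tested.

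Promoter sequences are shown for the pair with the largest rise, Mrps18b and Mrps10, for Mrpl18 and Mrpl42, which are among the largest falls, and for Mrpl49, which shares its start region with a gene that moved the other way. Each runs from 250 bases before to 50 after a RefSeq start, on the strand of the gene, in GRCm38.p6. For each gene 1 start was used, the first in order of coordinates. The windows of Mrps10 and Mrpl18 lie inside the RefSeq spans of these genes, 47368887-47381418 and 12911345-12917787 on chromosome 17. The positions are chr17:35916391-35916690 (Mrps18b, minus strand), chr17:47368947-47369246 (Mrps10, plus), chr17:12916042-12916341 (Mrpl18, minus), chr10:95501900-95502199 (Mrpl42, minus) and chr19:6057706-6058005 (Mrpl49, minus). Capitals mark matches, on either strand, to any of 6 motifs.
Mrps18b: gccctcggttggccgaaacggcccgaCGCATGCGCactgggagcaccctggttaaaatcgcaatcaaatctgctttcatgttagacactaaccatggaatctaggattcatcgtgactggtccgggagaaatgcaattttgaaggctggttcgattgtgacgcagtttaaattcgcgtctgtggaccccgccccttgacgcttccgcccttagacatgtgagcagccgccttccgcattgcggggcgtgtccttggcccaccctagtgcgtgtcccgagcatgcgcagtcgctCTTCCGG
Mrps10: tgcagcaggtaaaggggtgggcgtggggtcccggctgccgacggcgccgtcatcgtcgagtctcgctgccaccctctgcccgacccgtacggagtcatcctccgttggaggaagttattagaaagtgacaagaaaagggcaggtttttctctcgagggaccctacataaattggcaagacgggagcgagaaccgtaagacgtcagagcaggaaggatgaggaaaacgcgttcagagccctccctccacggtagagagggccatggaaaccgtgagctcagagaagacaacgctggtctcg
Mrpl18: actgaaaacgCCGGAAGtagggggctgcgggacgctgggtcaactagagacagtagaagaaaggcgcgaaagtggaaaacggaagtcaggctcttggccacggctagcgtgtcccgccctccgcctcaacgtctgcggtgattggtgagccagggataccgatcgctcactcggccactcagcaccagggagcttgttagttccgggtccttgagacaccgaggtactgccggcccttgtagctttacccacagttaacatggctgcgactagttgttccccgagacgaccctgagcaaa
Mrpl42: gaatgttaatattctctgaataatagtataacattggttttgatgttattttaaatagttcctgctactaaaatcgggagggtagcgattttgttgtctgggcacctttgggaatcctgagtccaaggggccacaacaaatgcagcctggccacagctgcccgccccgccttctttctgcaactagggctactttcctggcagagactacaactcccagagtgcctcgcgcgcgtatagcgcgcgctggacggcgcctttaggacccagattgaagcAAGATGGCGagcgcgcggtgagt
Mrpl49: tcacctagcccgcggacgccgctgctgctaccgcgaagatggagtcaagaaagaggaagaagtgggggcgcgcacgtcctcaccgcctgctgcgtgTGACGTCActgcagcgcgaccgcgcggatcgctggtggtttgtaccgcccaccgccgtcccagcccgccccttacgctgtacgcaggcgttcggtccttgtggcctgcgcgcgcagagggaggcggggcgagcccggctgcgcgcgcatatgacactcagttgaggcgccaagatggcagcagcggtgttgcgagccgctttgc
The motifs searched were the ETS core CCGGAAG, NRF1 GCGCNTGCG, YY1 AANATGGCG, the ATF4 composite TGATGNAA, the cAMP response element TGACGTCA and the E-box CACGTG. The ETS core and NRF1 motifs are bound by factors known for control of nuclear genes of mitochondria, and ATF4 is a factor of the mitochondrial stress response. In Mrps18b an NRF1 match began 224 bases upstream of the start and an ETS match, CTTCCGG, 43 bases downstream. In Mrpl18 an ETS match began 240 bases upstream, in Mrpl42 the YY1 match AAGATGGCG began 27 bases downstream, and in Mrpl49 the cAMP response element began 154 bases upstream. None of these matches overlaps another, and the window of Mrps10 held none of the 6 motifs.

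RefSeq promoters, 1 per gene chosen as above, were found for 70 of the 82 members and are compared with those of 8855 loci tested. The ETS core was in 25 members (35.7%) and in 18.6% of the loci tested, the NRF1 motif in 18 (25.7%) against 13.98%, and the YY1 motif in 11 (15.7%) against 5.61%. Over all 27025 RefSeq promoters these shares were 9.08%, 6.45% and 2.51%. By direction, the ETS core was in 2 of 4 higher, 3 of 21 lower and 20 of 45 members that did not pass. The NRF1 motif was in 1 of 4 higher, 6 of 21 lower and 11 of 45 that did not pass. No member window held the ATF4 composite, which was in 2.08% of the loci tested. The cAMP response element was in 2 members (2.86%; 3.13% of the loci tested) and the E-box in 6 (8.57%; 10.4%). Median GC content was 58.0% in member promoters and 61.0% over the loci tested, and it was 57.7% in both the higher and the lower members. These matches are descriptions of letters in a window and were not tested.

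Among the 24 lower members, knockout means were between 40.0% and 72.7% of control means. Mrps36 had the largest log2 fold change, with 37.2, 39.3 and 40.6 FPKM in controls and 20.7, 12.3 and 13.8 FPKM in knockouts (-1.33, SE 0.19, limma adjusted p = 0.0025). Despite its name, MRPS36 is now known as a subunit of the 2-oxoglutarate dehydrogenase complex and has not been placed in mitoribosome structures, so it was counted in neither subunit. The highest knockout value of Mrps36 was well below the lowest control. Processed copies of Mrps36, Mrpl23 and Mrpl48 were listed at 5 further loci, with at most 3.61 FPKM in any library, and how shared reads were assigned is not given in the sources used here.

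The lower large subunit genes began with Mrpl18, Mrpl42 and Mrpl28. Mrpl18, for a homolog of bacterial L18 in the central protuberance, was at 63.5, 71.1 and 76.1 FPKM in controls and at 39.2, 24.97 and 24.9 FPKM in knockouts (limma: log2 fold change -1.26, SE 0.20, adjusted p = 0.0033). Mrpl42, for a protein found in mitoribosomes only, was the most abundant member in controls. It was at 240, 284 and 273 FPKM in controls and at 131, 92.8 and 119 FPKM in knockouts (-1.23, SE 0.17, limma adjusted p = 0.0023), and the groups were far apart. Mrpl28, for a homolog of bacterial L28, was at 75.5, 75.8 and 77.7 FPKM in controls and at 35.4, 26.9 and 43.6 FPKM in knockouts (-1.13, SE 0.18, limma adjusted p = 0.0035). Its controls were close together, and the knockout values spread more widely below them.

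Mrpl30, a homolog of bacterial L30 and the second most abundant member, was at 157, 162 and 177 FPKM in controls and at 106, 71.0 and 103 FPKM in knockouts (-0.84, limma adjusted p = 0.012), and its call was lost without control replicate 3 (adjusted p = 0.051). Mrpl49, for a mitochondria-specific protein, was at 17.0, 20.03 and 19.5 FPKM in controls and at 11.8, 9.78 and 9.82 FPKM in knockouts (-0.82, limma adjusted p = 0.0032). In the RefSeq table Mrpl49 overlaps Syvn1 and Mrpl18 overlaps Tcp1, both protein-coding. The other lower large subunit genes were Mrpl4, Mrpl9, Mrpl11, Mrpl36, Mrpl39, Mrpl41, Mrpl45 and Mrpl55.

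In the small subunit, Mrps35, for a mitochondria-specific protein of the head, was at 64.2, 70.8 and 65.5 FPKM in controls and at 32.8, 24.3 and 26.4 FPKM in knockouts. Its log2 fold change was -1.26 (SE 0.14), and its limma adjusted p of 0.0010 was the smallest among the lower members. Mrps21, for the homolog of bacterial S21 and the most abundant small subunit gene in controls, was at 143, 137 and 132 FPKM there and at 71.1, 54.5 and 79.9 FPKM in knockouts (-1.02, limma adjusted p = 0.0039). Both genes showed groups well apart.

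Mrps33, another head protein of mitochondria only, had 12.8, 12.5 and 13.6 FPKM in controls and 8.29, 6.19 and 7.21 FPKM in knockouts (-0.81, limma adjusted p = 0.0038). Mrps15, for the homolog of bacterial S15, had 41.6, 40.5 and 37.9 FPKM in controls and 24.7, 20.2 and 23.4 FPKM in knockouts (-0.80, limma adjusted p = 0.0030). Every knockout library of either gene was below every control. Mrps9, Mrps24, Mrps25, Mrps28, Mrps31 and Ptcd3 were the other lower small subunit genes. Mrps24, for the homolog of bacterial S3, was at 66.4, 70.8 and 75.2 FPKM in controls and at 56.7, 44.2 and 53.6 FPKM in knockouts (-0.46, limma adjusted p = 0.037). Its call was lost without control replicate 1, 2 or 3, with limma adjusted p of 0.077, 0.12 and 0.13. It was also lost scaled to 1 sum (-0.23, limma adjusted p = 0.16), with loci of mitochondrial DNA removed first (-0.20, limma adjusted p = 0.24), with median-of-ratios scaling (limma adjusted p = 0.051) and with the replicate block (limma adjusted p = 0.082), so in 7 of 17 other settings. The locus of Mrps24 also carries the name Urgcp, and no other member past the threshold shared its locus with another gene name.

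Of the 5 members without an Mrp name, Ptcd3 alone passed. Ptcd3 encodes a pentatricopeptide repeat protein of the small subunit near the mRNA entry, and was at 45.4, 46.3 and 50.2 FPKM in controls and at 36.5, 21.3 and 31.3 FPKM in knockouts (-0.70, limma adjusted p = 0.031). Its call was lost without control replicate 1, 2 or 3, at an adjusted p between 0.076 and 0.0998, and in 6 of 17 other settings in all, at a limma adjusted p of up to 0.10. Dap3, the GTP-binding protein of the small subunit head, was at 45.3, 49.4 and 51.1 FPKM in controls and at 34.5, 27.1 and 42.0 FPKM in knockouts. The groups of Dap3 did not overlap, but it did not pass (-0.51, SE 0.17, limma adjusted p = 0.054). Values were -0.40 for Gadd45gip1 in the large subunit, -0.26 for Chchd1 and -0.20 for Aurkaip1 in the small subunit, with limma adjusted p of 0.077, 0.21 and 0.30, and for these 3 genes the groups overlapped. Chchd1, among the most abundant small subunit genes, was at 69.4, 69.8 and 74.7 FPKM in controls and at 71.1, 51.8 and 56.8 FPKM in knockouts.

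**Figure D2:**
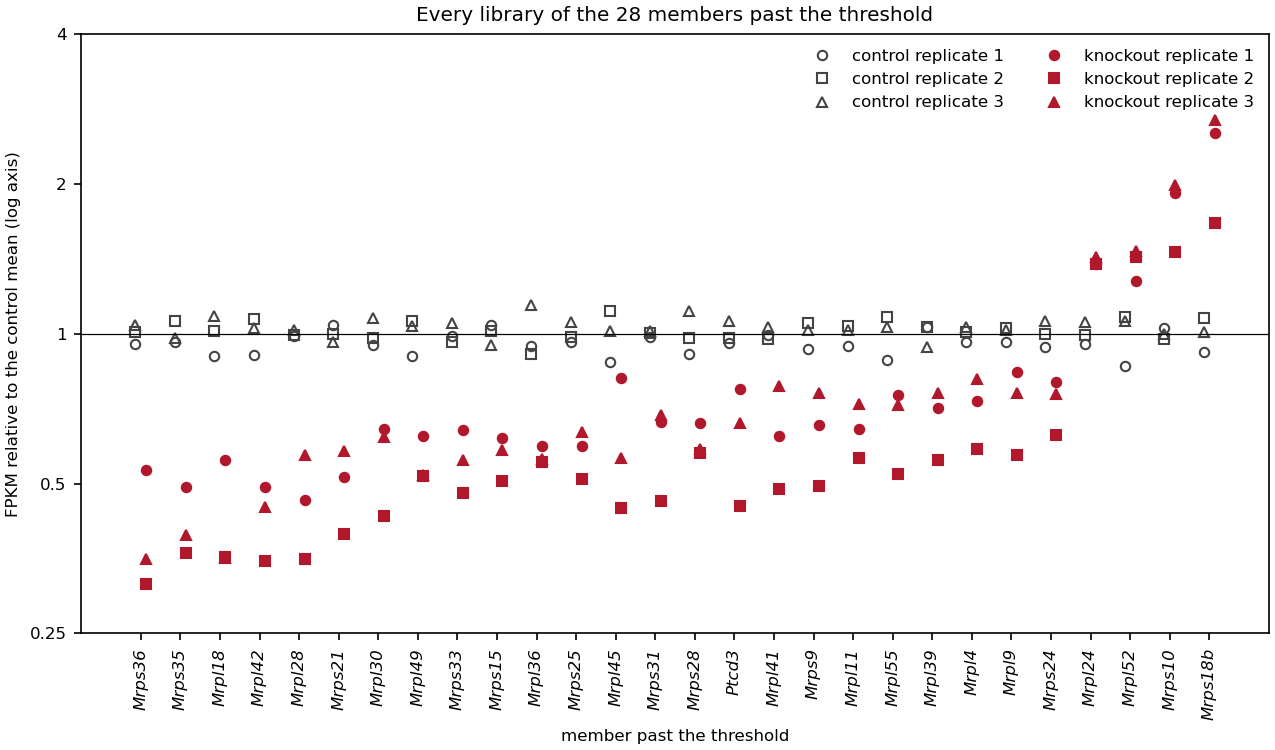
FPKM of each library divided by the control mean (log axis) for the 28 members past the threshold, in order of fold change; open grey symbols are the 3 controls and filled red symbols the 3 knockouts. In all 24 lower and 4 higher members the groups are apart, and knockout replicate 2 (square) is the lowest of the 6 libraries in 23 of the 24 lower members.

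The subunits were compared side by side, with members assigned by their place in mitoribosome structures, which puts Mrps18a and Mrps30 in the large subunit. Of 51 large subunit genes 2 were higher, 13 were lower and 36 did not pass, with a median log2 fold change of -0.24. Of 30 small subunit genes 2 were higher, 10 were lower and 18 did not pass, with a median of -0.28. The share of lower genes was 25.5% in the large and 33.3% in the small subunit, and 19.5% of all loci were lower, and that of higher genes 3.92% and 6.67%, against 16.1% of all loci. Without knockout replicate 2 the medians were -0.12 for the large and -0.17 for the small subunit, with 6 and 5 genes higher and 14 and 10 lower. In that fit 17.7% of all loci were higher and 19.6% lower. The difference between subunits was not tested. The large subunit count of lower genes was 7, 7 and 6 without control replicate 1, 2 and 3 in turn. Over all loci 12.6%, 11.6% and 12.1% were lower in those fits.

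**Figure D3:**
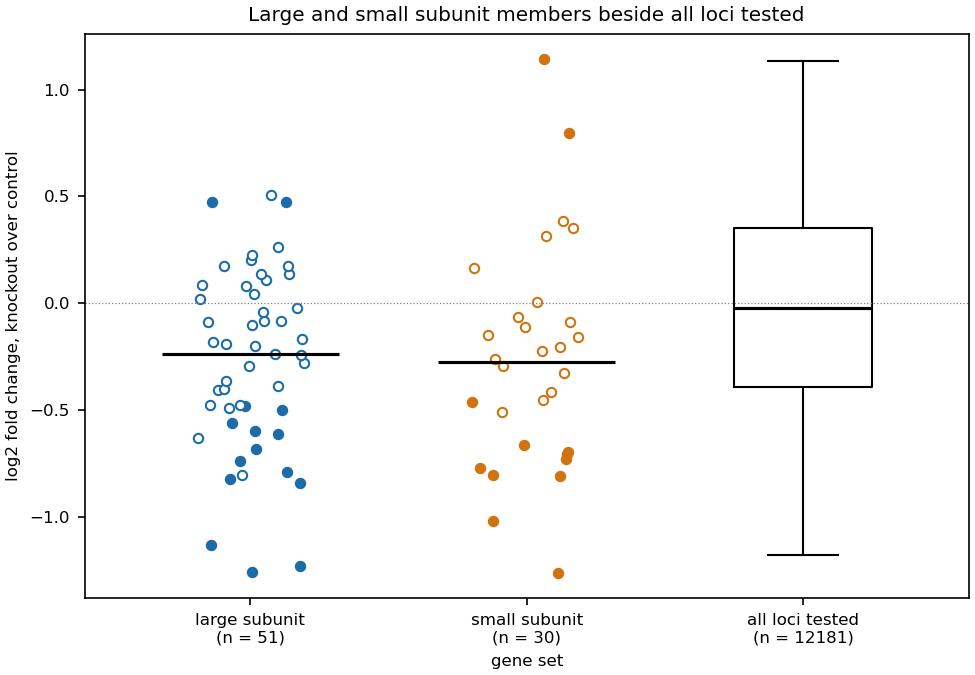
Log2 fold change of each large (n = 51) and small (n = 30) subunit gene, filled where the adjusted p was under 0.05, with the median as a line; the box shows all 12181 loci tested (median, quartiles, and whiskers at the 5th and 95th percentiles). The medians of -0.24 and -0.28 both lie below the -0.02 of all loci, and most points overlap between the subunits.

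Of 46 members with a bacterial homolog 2 were higher and 13 lower (28.3%, median -0.26). Of 35 mitochondria-specific members 2 were higher and 10 lower (28.6%, median -0.24). Mrps18a and Mrps18b, though relatives of bacterial S18, were counted as mitochondria-specific, and Mrps18c as having a homolog. Mrps18b is thus among the 2 higher mitochondria-specific members. Among all members 29.3% were lower, and among all loci 19.5% were lower and 16.1% higher. Among 5 proteins of the stalk, where translation factors dock, Mrpl11 was lower and the other 4 did not pass. In the central protuberance, which contacts the small subunit, Mrpl18 was lower and 5 others did not pass. At the polypeptide exit site, which faces the inner membrane, Mrpl24 was higher, Mrpl45 lower and 4 others did not pass. Of 10 head proteins of the small subunit, through which the mRNA enters, Mrps9, Mrps24, Mrps31, Mrps33, Mrps35 and Ptcd3 were lower and Mrps10 was higher, with a median of -0.58. These 4 places hold 27 of the 82 tested members, and the groups were not tested.

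The 54 members that did not pass had log2 fold changes from -0.80 to 0.51 and a median standard error of 0.18. In 52 of them the 95% interval of the change lay within 2-fold in either direction, and 32 had a log2 fold change between -0.25 and 0.25. In 10 of them every knockout was below every control, and for Mrps22 every knockout was above. Over all loci tested, passed or not, 28.7% lay below and 23.6% above in this way. The share among all loci that did not pass was not counted. The lowest value among the 54, of Mrpl14 at -0.80 (SE 0.28), had groups that did not overlap and a limma adjusted p of 0.058. Mrpl20 had the highest value, 0.51 (SE 0.20), with 30.5, 36.3 and 31.9 FPKM in controls and 48.7, 35.2 and 60.0 FPKM in knockouts, so that replicate 2 alone fell within the control range.

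Some of the most abundant members were among those that did not pass. Mrpl33, homolog of bacterial L33, was at 121, 120 and 126 FPKM in controls and at 137, 110 and 174 FPKM in knockouts (0.18, limma adjusted p = 0.49). Its locus also carries the names Bre and RP24-80F7.7. Mrps23 was at 77.5, 64.7 and 74.5 FPKM in controls and at 99.5, 64.2 and 131 FPKM in knockouts (0.39, limma adjusted p = 0.27). Mrpl51 was at 90.4, 90.3 and 105 FPKM in controls and at 78.5, 51.9 and 78.2 FPKM in knockouts (-0.47, limma adjusted p = 0.089). The first pair spanned the control values and Mrpl51 lay below them in all 3 knockouts.

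Mrpl12, a stalk protein that also binds the mitochondrial RNA polymerase, varied more among controls than any other member. It was at 49.3, 46.6 and 22.2 FPKM in controls and at 45.9, 31.9 and 38.2 FPKM in knockouts, with a coefficient of variation of 38.0% in controls. Its log2 fold change was 0.04 with all libraries and -0.32 without control replicate 3. Mrps30, in the large subunit despite its name, was at 19.3, 16.9 and 16.5 FPKM in controls and at 20.9, 15.7 and 21.9 FPKM in knockouts (0.14, limma adjusted p = 0.52), and these groups overlapped.

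The share of lower members differed with their level in controls. Control means ran from 2.28 FPKM for Mrpl23 to 266 FPKM for Mrpl42, with a median of 33.4 FPKM. Of the 28 most abundant members 13 were lower (46.4%), against 6 of the middle 27 (22.2%) and 5 of the lowest 27 (18.5%). For all loci in the same ranges of level the shares were 35.9%, 29.2% and 19.0%. The 4 higher members had control means between 10.2 and 44.5 FPKM and the 24 lower ones between 10.9 and 266 FPKM. By level, from high to low, the medians of the members were -0.48, -0.29 and -0.09, and those of all loci in the same ranges -0.32, -0.17 and -0.03. Sequencing precision also grows with level, and its part in these shares was not tested.

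The knockout libraries differed from each other more than the controls did. Relative to the control mean, the median member was at -0.14, -0.53 and -0.13 on the log2 scale in knockout replicates 1, 2 and 3, and at -0.08, 0.02 and 0.05 in the controls. Knockout replicate 2 was the lowest knockout library for 76 of 82 members (92.7%), and for 43.8% of all loci tested. The members together summed to 3206, 3445 and 3526 FPKM in controls and to 2910, 2180 and 2996 FPKM in knockouts. As a share of all FPKM this was 0.612%, 0.599% and 0.598% in controls and 0.623%, 0.477% and 0.580% in knockouts, so that knockout replicate 1 was above every control by this measure. The median coefficient of variation was 8.29% in controls and 19.4% in knockouts.

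Without knockout replicate 2, 11 members were higher (13.4%, beside 17.7% of all loci) and 25 were lower (30.5%, beside 19.6%). The median of the members was then -0.16. Mrpl15, Mrpl20, Mrpl54, Mrps18a, Mrps22, Mrps23 and Mrps34 were then higher as well. That library also had the lowest sum of cardiomyocyte markers, 7216 FPKM, and the atrial and erythroid sums given above. Of 5 macrophage markers 4 were higher in the knockout, as were 16.1% of all loci. Their sums were 162 to 176 FPKM in knockouts against 114 to 124 FPKM in controls. For 4 fibroblast markers, sums were 249 to 305 FPKM in controls and 219 to 276 FPKM in knockouts, with 1 marker higher and none lower. For 4 endothelial markers they were 144 to 161 against 129 to 159 FPKM, and none passed. The 4 skeletal muscle markers summed to 1107 to 1349 FPKM in controls and to 272 to 617 FPKM in knockouts. Of these 4, 1 was lower and 2 were at 0 in some library. They include Ckm, the muscle creatine kinase gene, whose promoter acts in heart too. The 3 neuronal markers found summed to at most 0.238 FPKM, each at 0 in some library. The part of cell makeup in the changes of the members was not tested.

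**Figure D4:**
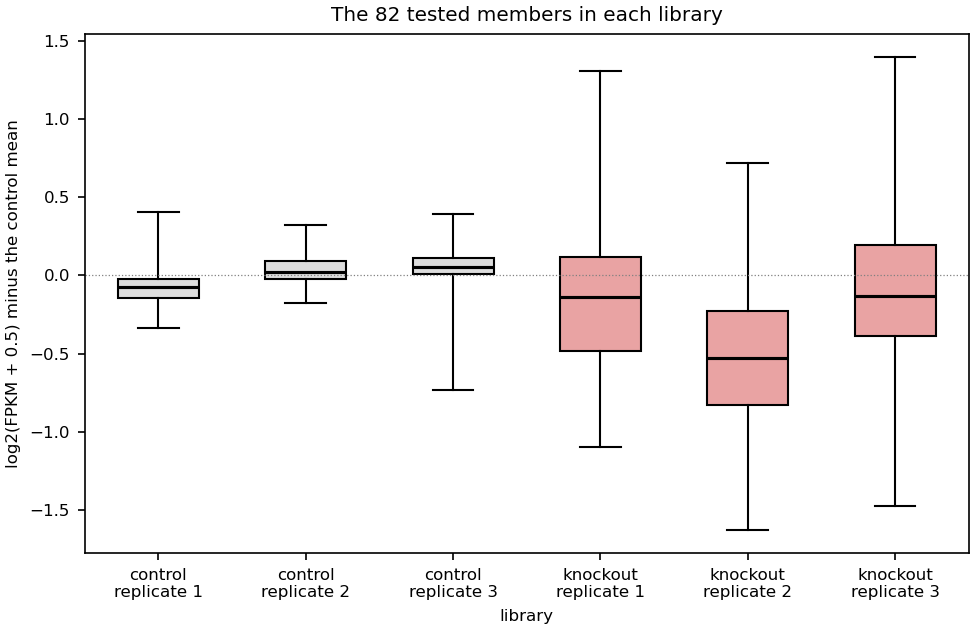
Distribution over the 82 tested members of log2(FPKM + 0.5) minus the mean of the controls, for each library; boxes show the median and quartiles and whiskers the full range. The box of knockout replicate 2 (median -0.53) lies below those of knockout replicates 1 and 3 (medians -0.14 and -0.13), whose boxes span 0.

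Many members begin next to another gene. Of the 70 members with a RefSeq promoter, 27 (38.6%) had a gene on the other strand that started within 1000 bases and ran away from it, as did 19.8% of the 8855 loci tested. For 23 members the neighbour was tested too, among them Mrpl46 and Mrps11, which start 42 bases apart, belong to different subunits and both did not pass. Of the 7 members past the threshold with a tested neighbour, 1 moved with it, 2 moved against it and for 4 the neighbour did not pass.

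Mrpl49 and Fau start 192 bases apart, so the start of Fau lies inside the Mrpl49 window printed above, and the cAMP response element lies between the starts. Fau, which encodes a fusion of a ubiquitin-like protein with a cytosolic small subunit ribosomal protein, rose from 7.26 ± 0.494 to 12.8 ± 1.85 FPKM (SD, n = 3 each; limma: log2 fold change 0.77, adjusted p = 0.0049) while Mrpl49 fell by 0.82 on the log2 scale. Mrps18b and Ppp1r10, a regulatory subunit of protein phosphatase 1 in the nucleus, start 756 bases apart. Ppp1r10, whose locus also carries the name Mir1894, fell from 16.7 ± 0.786 to 10.6 ± 1.76 FPKM (SD, n = 3 each; limma: log2 fold change -0.64, adjusted p = 0.013) while Mrps18b rose. Mrpl55 and 2610507I01Rik, 55 bases apart, were both lower, at -0.60 and -0.90.

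For Mrpl18, Mrpl30, Ptcd3 and Mrpl41, which were lower, the neighbours Tcp1, Mitd1, Polr1a and Pnpla7 did not pass, with log2 fold changes of 0.03, -0.06, 0.18 and 0.19. Mrpl47, at -0.08, starts 308 bases from Ndufb5, a complex I subunit that was lower at -1.14 (limma adjusted p = 0.0090). Only 3 pairs of members lay within 100000 bases of each other, and the members were spread over 17 chromosomes.

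**Figure D5:**
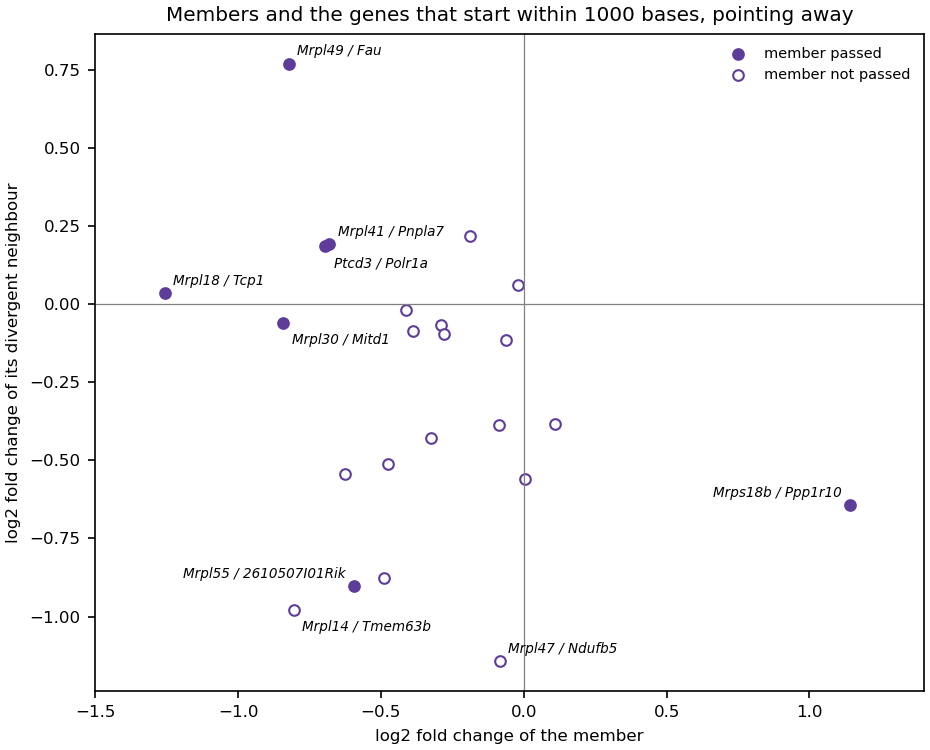
Log2 fold change of each member (horizontal axis) and of the neighbour that starts within 1000 bases and runs the other way (vertical axis), for the 23 members with a tested neighbour; filled points are members past the threshold. Mrpl49 with Fau (upper left) and Mrps18b with Ppp1r10 (lower right) lie in opposite quadrants, with the members at -0.82 and 1.14.

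The factors that build the mitoribosome and modify its RNA were read from a separate list. Of 25 assembly factors and rRNA-modifying enzymes 1 was higher and 9 were lower (36.0%, beside 19.5% of all loci), with a median log2 fold change of -0.26. Mpv17l2, an inner membrane protein needed for mitoribosome assembly, was at 3.63, 5.49 and 4.80 FPKM in controls and at 9.26, 10.6 and 13.2 FPKM in knockouts (1.17, limma adjusted p = 0.0035). Lower genes included Ftsj2, an rRNA methyltransferase of the large subunit (-0.86), the GTPase gene Mtg2 (-0.72) and Tfb1m, which dimethylates the small subunit rRNA (-0.62), with limma adjusted p of 0.018, 0.0051 and 0.0076. In all 4 genes the groups did not overlap. The call for Ftsj2 was lost in 4 of 16 other settings, without control replicate 2 or 3 and under both scalings to 1 sum, at a limma adjusted p of up to 0.067.

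Of 16 genes for translation factors and related proteins none was higher and 6 were lower (37.5%, beside 19.5% of all loci), with a median of -0.53. The 16 include Ict1, also named Mrpl58, which did not pass (-0.26, limma adjusted p = 0.12). Tufm, the elongation factor that brings aminoacyl-tRNA to the ribosome, was at 30.6, 37.9 and 32.5 FPKM in controls and at 17.6, 12.2 and 16.5 FPKM in knockouts (-1.11, limma adjusted p = 0.0028). The initiation factor gene Mtif2 was lower at -0.86, the release factor gene Mtrf1l at -0.82 and Oxa1l, for the insertase that takes new proteins into the inner membrane, at -0.65, with limma adjusted p of 0.0046, 0.031 and 0.0081. The call for Mtrf1l was lost in 8 of 16 other settings, among them without control replicate 2 or 3 and without knockout replicate 2 or 3, at a limma adjusted p of up to 0.090. The small subunit rRNA, mt-Rnr1, had listed values of 0 in the 3 controls but of 18520, 12603 and 19692 FPKM in knockouts, and the large subunit rRNA, mt-Rnr2, at 0 in all 6 libraries. An exact 0 may be a failed estimate, so no fold is given.

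Of 77 genes for cytosolic ribosomal proteins 39 were higher and 2 lower (median log2 fold change 0.47). Of 36 complex I genes with an Nduf symbol none was higher and 30 were lower (median -0.96). Over all loci tested 16.1% were higher and 19.5% lower, and of the mitoribosomal members 4.88% were higher and 29.3% lower. The mitoribosomal median of -0.25 lay between the medians of 0.47 and -0.96, and the differences were not tested.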

How the data were processed

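Total RNA libraries of 3 control and 3 knockout hearts were analysed; groups and replicate numbers came from the source names in the labels. The deposited values are FPKM per locus, 1 library per file, made by the authors, per the file headers and names. Per the submitters' processing notes, the tools were bedtools, Cuffdiff, Cufflinks 2.2.1, HISAT 0.1.6, HISAT2 2.0.1, Picard 1.23, SAMtools 1.3 and StringTie 1.1.0, with builds GRCm38 and mm10. Not given in the sources used here are their roles, the annotation, scaling between libraries and use of strand. Depth is not stated: relative depth was estimated from the most frequent ratio between low values, and whole read numbers were not recovered.

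Log2(FPKM + 0.5) was used with no scaling beyond the deposited FPKM, for the 12181 loci that reached 1 FPKM in 3 or more of the 6 libraries. The groups were compared by limma 3.58.1 in R 4.3.3 as a two-sided moderated test with a variance trend, adjusted over all loci by Benjamini-Hochberg at a threshold of 0.05. Fold changes are on this scale, which understates those of low genes. The fit was tested on simulated data.

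The members, gene lists and marker lists were chosen with earlier results of these data known. Values were given for the 10 largest rises and falls past the threshold, the 4 most abundant members of each subunit, the 5 members without an Mrp name, Mrps18a, Mrps18b, Mrps18c, Mrps30, Mrps36 and Mrpl12, up to 4 genes of each further list, and Prorp. Those 4 of each list are the largest changes past the threshold. Mrpl14, Mrpl20, Mrpl23, Mrps22, members given by name only and the neighbouring genes were chosen with values in view. Of the member loci, 6 carry more than 1 gene name, and 29 of the 82 genes overlap another RefSeq gene. Gene positions and promoters are RefSeq's, in GRCm38.p6. Mrpl58, listed as Ict1, was not counted as a member but is in the list of translation factors and related proteins. Alternatives were other pseudocounts, filters and scalings, no variance trend, array weights, a replicate block, and each library left out.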

Additional observations from a re-analysis of the deposited data

How the results depend on the processing

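Of the members, 2 higher (Mrps10 and Mrps18b) and 14 lower ones (Mrpl11, Mrpl18, Mrpl28, Mrpl36, Mrpl42, Mrpl49, Mrps15, Mrps21, Mrps25, Mrps28, Mrps31, Mrps33, Mrps35 and Mrps36) passed in all 18 fits. The share of all loci that passed in all 18 fits was not counted, so it is not known whether the members were more stable. Scaling each library to 1 sum gave 9 members higher with a median of -0.024, of which large subunit genes were 5 higher and 8 lower and small subunit genes 4 higher with a median of -0.049, and over all loci 3229 higher and 1400 lower. With loci of mitochondrial DNA removed first, 9 members were higher and 15 lower with a median of 0.0084 (large 5 higher, 7 lower, median 0.020; small 4 higher, median -0.017), and all loci gave 3379 higher and 1282 lower. The median of all loci was 0.20 scaled to 1 sum and 0.23 with mitochondrial loci removed first, beside -0.02 with the deposited FPKM. Quantile normalization gave 8 members higher (5 large) and 31 lower, and array weights 12 higher (7 large, 5 small) and 32 lower. As shares, 9.76% and 14.6% of members were higher in turn, beside 17.7% and 23.5% of all loci. Lower were 37.8% and 39.0% of members, beside 20.4% and 27.6% of all loci. A mean of at least 5 FPKM left 1303 loci higher. With the replicate block 2 members (2.44%) were higher, 0 of them large, and 19 (23.2%) were lower. Over all loci 12.6% were higher and 14.8% lower in that fit. Deviations from the group means correlated at -0.08, -0.06 and -0.01 between same-numbered samples, and from -0.08 to 0.12 between the others. With 3 libraries per group these values cannot decide whether the numbers pair the samples. With 1 library left out, members higher ran from 2 to 11 and lower from 14 to 28, large subunit genes from 0 to 6 higher and 6 to 15 lower, small subunit genes from 2 to 5 higher, and all loci from 1212 to 2153 higher and 1409 to 2389 lower.

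Scaling moved members across 0: 60 were below 0 with the deposited FPKM, 43 scaled to 1 sum and 40 with mitochondrial loci removed first. The median of all loci moved the same way, from -0.02 to 0.20 and 0.23 in turn. Of the named members, 4 changed sign. Chchd1 was at 0.00021 with mitochondrial loci removed, Aurkaip1 at 0.025 scaled to 1 sum and 0.058 with mitochondrial loci removed. Mrps18c was at 0.16 and 0.20 under the same settings, at 0.018 without control replicate 3 and at 0.13 without knockout replicate 2, and with 1 library left out ran from -0.23 to 0.13. Mrpl12 was at -0.32 without control replicate 3 and at -0.086 without knockout replicate 1, and ran from -0.32 to 0.25 with 1 library left out and up to 0.31 over all settings. None of these values passed the test. Summed FPKM over all loci, by which scaling to 1 sum divides, was 523499 to 589995 in controls and 456493 to 516068 in knockouts. The cause of the sign changes was not tested. Depth differed between the groups and no counting interval can be given; 3 libraries per group limit small changes, with a median standard error of 0.18 among members that did not pass.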
